A study of Mus musculus with 2 samples.

Results

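The integrin chains described here are 10 genes, Itgal, Itgam, Itgb2, Itga4, Itgb1, Itgb7, Itgae, Itga6, Itgav and Itgb8, chosen by name as the integrin chains of T cells together with Itgav and Itgb8, which form an activator of TGF-beta. All 10 symbols were found, each as 1 Ensembl gene, among the 41592 genes of the deposited table, and all 10 had a mean level of at least 1 FPKM. FPKM is a read count scaled to gene length and library total. RNA was sequenced from 2 populations of T cells, enriched with magnetic beads for CD4 and then sorted, of C57BL/6 mice (spleen and lymph node, age 6 to 8 weeks). Every animal carried the genotype Foxp3 dCNS1-Cre-R26-YFP, which by its name drives Cre from Foxp3 sequence without the CNS1 enhancer, with a YFP reporter at Rosa26, so that YFP labels cells that have at some time expressed Cre and the descendants of such cells. Both populations were YFP+, and 1 was Thy1.1- and the other Thy1.1+. The series title speaks of tTreg cells and exFoxp3 precursor cells, but its design text assigns the same markers to both, so the populations are called Thy1.1-negative and Thy1.1-positive here. Each population is 1 library, the number of animals behind it is not given in the sources used here, and no difference below has a replicate check or a p-value.

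Integrins are adhesion receptors made of an alpha and a beta chain, and a chain reaches the cell surface only with a partner. In T cells the alpha-L chain (Itgal) pairs with beta-2 (Itgb2) to form LFA-1, which binds ICAMs, while alpha-4 (Itga4) pairs with beta-1 (Itgb1) to bind VCAM-1 and fibronectin or with beta-7 (Itgb7) to bind MAdCAM-1 on gut vessels. Beta-7 also pairs with alpha-E (Itgae, CD103), which binds E-cadherin on epithelium, and alpha-V (Itgav) pairs with beta-8 (Itgb8) to release active TGF-beta from its latent form.

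Depth was close in the 2 libraries, with 18536339 counted reads in Thy1.1-negative and 18600581 in Thy1.1-positive cells. Whole reads could be recovered from the values, and the 10 chains together held 76869 reads in Thy1.1-negative and 62301 in Thy1.1-positive cells. Intervals are exact 95% intervals of the read counts and do not cover the spread between animals or sorts. The T and Treg cell marker list was present in both libraries, with all 12 of 12 genes measured, a summed level of 4844 FPKM in Thy1.1-negative and 4486 FPKM in Thy1.1-positive cells, and Foxp3 at 158 and 237 FPKM. Cd4 had the highest difference of the list, at 471 and 327 FPKM. Il2ra, the interleukin-2 receptor alpha chain, was the 1 gene of that list past 2-fold, at 98.8 and 205 FPKM, and lay within 2-fold at -0.79 after rescaling by the upper quartile of values above 0. Of all genes with a mean of at least 1 FPKM, 1.15% were at least 2-fold lower, or 0.64% after that rescaling. In bulk RNA, fewer cells that express a gene and less RNA per cell cannot be told apart.

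The 10 chains did not differ alike between the populations. Itgam and Itgb1 were at least 2-fold higher in Thy1.1-negative cells, the 8 other chains lay within 2-fold, and none was at least 2-fold lower. Among the 12820 genes with a mean of at least 1 FPKM, 3.08% were past 2-fold either way, 1.93% (247 genes) higher and 1.15% (148 genes) lower, or 398 higher and 82 lower after rescaling by the upper quartile. Calls use the difference of log2(FPKM + 1), Thy1.1-negative minus Thy1.1-positive, and the added 1 understates the difference of low genes. Of the 10 chains, 6 were above 0 and 4 below, with a median difference of 0.18, and of all 12820 genes 55.1% were above 0, with a median of 0.03. When the libraries were rescaled by the upper quartile of values above 0, the median of all genes moved up by 0.23 to 0.26. On that scale 9 of the 10 chains and 82.7% of all genes were above 0, the median of the chains was 0.44, and Itgam and Itgb1 were the 2 chains past 2-fold, against 3.1% of all genes higher and 0.64% lower.

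**Figure D1:**
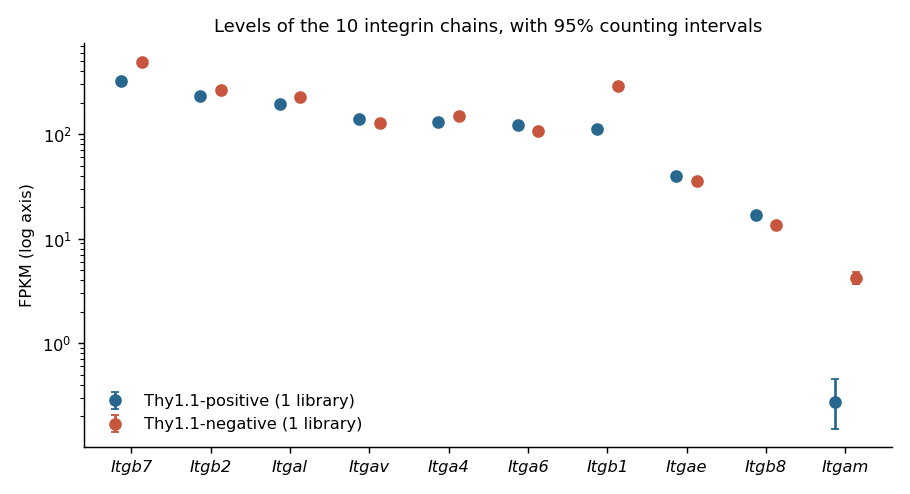
Level of each of the 10 integrin chains in FPKM on a log axis, in Thy1.1-positive (blue) and Thy1.1-negative cells (red), 1 library each, with 95% counting intervals that are mostly smaller than the points. Itgb1 stood at 112 and 286 FPKM and Itgam at 0.272 and 4.17 FPKM, and the points of the other chains lie close together.

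The promoters of the 2 chains past 2-fold and of the chain with the lowest difference, Itgb8, are shown as the 250 bases before the annotated start, from RefSeq on build GRCm38.p6, which is another build than the mm9 named in the submitters' processing notes. Capitals mark GAGGAA or its reverse TTCCTC, the core of sites for PU.1, an ETS factor of myeloid and B cells, and GGGCGG or its reverse CCGCCC, the GC box bound by Sp factors. The Itgam window is chr7:128062390-128062639 on the plus strand, the Itgb1 window chr8:128685404-128685653 on the plus strand and the Itgb8 window chr12:119238277-119238526 on the minus strand.
Itgam: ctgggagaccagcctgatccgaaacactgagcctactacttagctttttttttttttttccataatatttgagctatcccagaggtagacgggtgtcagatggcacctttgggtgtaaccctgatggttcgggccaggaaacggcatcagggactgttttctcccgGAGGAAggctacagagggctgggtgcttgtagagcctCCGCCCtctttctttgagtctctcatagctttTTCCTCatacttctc
Itgb1: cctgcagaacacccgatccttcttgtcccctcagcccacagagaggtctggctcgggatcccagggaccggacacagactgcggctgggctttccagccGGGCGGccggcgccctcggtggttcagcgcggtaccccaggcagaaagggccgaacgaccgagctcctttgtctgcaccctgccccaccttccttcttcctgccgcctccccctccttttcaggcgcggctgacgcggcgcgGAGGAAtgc
Itgb8: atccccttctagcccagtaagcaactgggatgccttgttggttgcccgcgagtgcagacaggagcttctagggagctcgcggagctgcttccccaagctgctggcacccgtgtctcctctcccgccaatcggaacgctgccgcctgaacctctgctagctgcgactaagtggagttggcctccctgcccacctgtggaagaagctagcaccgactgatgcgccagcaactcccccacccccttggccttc
Overlaps between the motifs were allowed. The PU.1 core occurred 2 times in the Itgam window and 1 time in the Itgb1 window, and the GC box 1 time in each, while the Itgb8 window held neither. Of 32851 promoter windows of this length, 23.3% held the PU.1 core and 32.7% the GC box on either strand. GC content was 49.6% for Itgam, 68.0% for Itgb1 and 62.4% for Itgb8, against a median of 52.4% over all windows. Letters of 3 other motifs were searched on both strands, and none of them was in these 3 windows. They were the RUNX core TGTGGT, which 14.0% of all windows held, the TATA box TATAAA, which 12.4% of windows held, and the Smad element GTCTAG, which 7.11% of windows held. Among the other chains in the promoter table, the window of Itgav held the PU.1 core 2 times, and those of Itga4 and Itgb7 did not hold it. The Itgb1 window had 21 CpG dinucleotides and that of Itgam 6, which is also the median of all windows. A match of letters is a description of the sequence and shows no binding. The promoter table held 6 of the 10 chains, not Itgal, Itgb2, Itgae and Itga6.

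The common beta-1 chain had the second largest difference of the 10. Itgb1 (ENSMUSG00000025809, chromosome 8) encodes the partner shared by alpha-4, alpha-6, alpha-V and 9 other alpha chains, in receptors for VCAM-1, fibronectin, laminins and collagens. It stood at 286 FPKM, from 10722 reads, in Thy1.1-negative cells and at 112 FPKM, from 4202 reads, in Thy1.1-positive cells, a ratio of 2.56 (2.47 to 2.65). Its difference of 1.35 was larger than that of 99.0% of all genes with a mean of at least 1 FPKM, and it was at least 2-fold under all the pseudocounts and scalings tried, from 1.31 to 1.60. In the order of FPKM among the 10 chains, Itgb1 was the second highest in Thy1.1-negative cells and the seventh highest in Thy1.1-positive cells. With the longest coding transcript as the length, it was the fourth and the fifth, so the change of place depends on the length.

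The abundant alpha chains that pair with beta-1 were much closer between the populations. Itga4 (ENSMUSG00000027009, chromosome 2), which gives VLA-4 with beta-1 and the gut-homing receptor with beta-7, stood at 150 FPKM in Thy1.1-negative and 132 FPKM in Thy1.1-positive cells, a ratio of 1.14 (1.11 to 1.17). Itga6 (ENSMUSG00000027111, chromosome 2), the alpha chain of a laminin receptor, was slightly lower in Thy1.1-negative cells, at 107 against 123 FPKM, a ratio of 0.871 (0.837 to 0.907). This turned to slightly higher after rescaling by the upper quartile, where its difference was 0.06 and the median of all genes 0.26. Summed over the 12 alpha chains known to pair with beta-1, the level was 404 FPKM in Thy1.1-negative and 410 FPKM in Thy1.1-positive cells. That is 1.41 FPKM of alpha chain per FPKM of Itgb1 in Thy1.1-negative cells and 3.67 in Thy1.1-positive cells, or 1.11 and 2.89 with the longest coding transcript as the length. Several of these alpha chains also pair with other beta chains, so the sums do not give numbers of receptors.

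The beta-7 chain was the most abundant of the 10 in both libraries. Itgb7 (ENSMUSG00000001281, chromosome 15) reached 493 FPKM, from 14064 reads, in Thy1.1-negative cells and 322 FPKM, from 9215 reads, in Thy1.1-positive cells. Its ratio of 1.53 (1.49 to 1.57) gave a difference of 0.61, above that of 94.7% of genes, and the gene passed a 1.5-fold rule but not the 2-fold rule. Beta-7 and beta-1 share the alpha-4 chain, and within a library their ratio does not depend on how the libraries are scaled. Itgb1 was 0.581 times Itgb7 in Thy1.1-negative and 0.347 times Itgb7 in Thy1.1-positive cells, so the ratio was 1.67-fold higher in Thy1.1-negative cells (1.60 to 1.75). As a share of the summed level of both chains, Itgb1 made up 36.7% in Thy1.1-negative and 25.8% in Thy1.1-positive cells.

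The other alpha partner of beta-7 was slightly lower in Thy1.1-negative cells as deposited and slightly higher after rescaling by the upper quartile. Itgae (ENSMUSG00000005947, chromosome 11), the CD103 chain that holds T cells at epithelia and is found on a subset of Treg cells, stood at 35.4 FPKM in Thy1.1-negative and 39.6 FPKM in Thy1.1-positive cells. The ratio was 0.894 (0.847 to 0.944), and the difference of -0.16 became 0.09 after rescaling by the upper quartile, where the median of all genes was 0.26. Relative to Itgb7, Itgae was at 0.0719 in Thy1.1-negative and 0.123 in Thy1.1-positive cells, a ratio of ratios of 0.584 (0.550 to 0.620) that no rescaling of the libraries changes. With the longest coding transcript as the length, Itgae was at 0.125 and 0.214 of Itgb7. Of the summed level of both alpha partners of beta-7, Itga4 made up 80.9% in Thy1.1-negative and 76.9% in Thy1.1-positive cells. Both partners together had 0.377 FPKM per FPKM of Itgb7 in Thy1.1-negative cells and 0.533 in Thy1.1-positive cells.

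**Figure D2:**
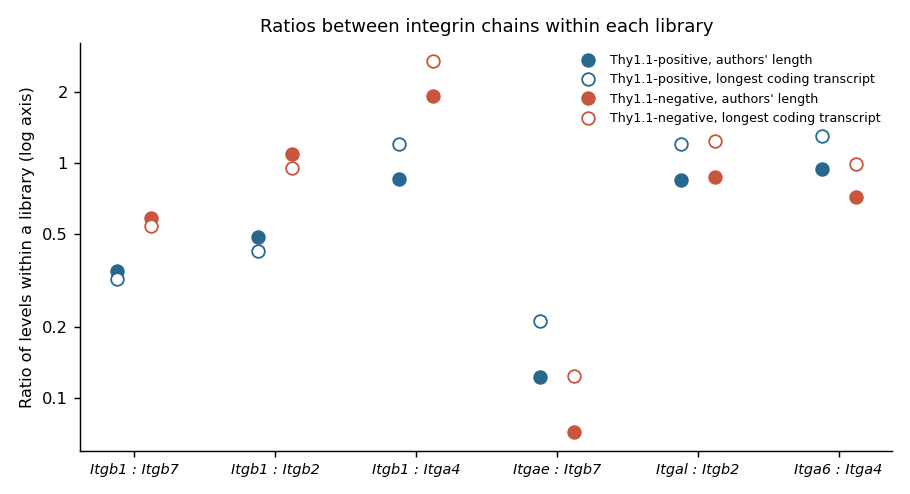
Ratio of the levels of 2 chains within Thy1.1-positive (blue) and Thy1.1-negative cells (red), on a log axis, with gene length taken as the authors used it (filled) or as the longest coding transcript (open). The ratio of Itgb1 to Itgb7, to Itgb2 and to Itga4 is higher in Thy1.1-negative cells on both lengths, Itgae to Itgb7 and Itga6 to Itga4 are lower, and Itgal to Itgb2 is nearly level.

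The LFA-1 chains were abundant and slightly higher in Thy1.1-negative cells. Itgal (ENSMUSG00000030830, chromosome 7), the alpha-L chain, stood at 228 FPKM in Thy1.1-negative and 196 FPKM in Thy1.1-positive cells, a ratio of 1.16 (1.14 to 1.19). Itgb2 (ENSMUSG00000000290, chromosome 10), the beta-2 chain common to all leukocyte integrins of this group, stood at 263 and 232 FPKM, a ratio of 1.13 (1.1003 to 1.17). On the upper quartile scale the differences were 0.47 for Itgal and 0.44 for Itgb2, where the median of all genes was 0.26. The 2 chains were in nearly the same proportion to each other, with an Itgal to Itgb2 ratio of 0.866 in Thy1.1-negative and 0.845 in Thy1.1-positive cells, and the interval of the change, 0.987 to 1.06, includes 1. Against beta-2, beta-1 was higher in Thy1.1-negative cells, with Itgb1 at 1.09 times Itgb2 there and 0.482 times Itgb2 in Thy1.1-positive cells, a change of 2.26-fold (2.15 to 2.37).

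Itgam (ENSMUSG00000030786, chromosome 7) showed the largest ratio and the lowest level of the 10 chains. It encodes alpha-M (CD11b), which forms the complement receptor Mac-1 with beta-2, and is best known from myeloid and natural killer cells. Over 68.7% of its exons, GENCODE M21 lists another gene on the same strand, Gm49368, which has no row in the deposited table. Itgam had 229 reads in Thy1.1-negative and 15 reads in Thy1.1-positive cells, or 4.17 and 0.272 FPKM, a ratio of 15.3 (9.10 to 27.8). Its difference of 2.02 exceeded that of 99.8% of genes, but it was 0.80, within 2-fold, with a pseudocount of 5, and at a mean of 2.22 FPKM the gene does not enter a list of genes of at least 5 FPKM. Even in Thy1.1-negative cells, Itgam was 1.80% of the summed level of Itgam and Itgal, and 0.139% in Thy1.1-positive cells.

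The 3 integrin genes next to one another on chromosome 7, Itgam, Itgax and Itgad, all encode partners of beta-2 and all had more reads in Thy1.1-negative cells. Itgad, the alpha-D chain, had 20 against 3 reads, a ratio of 6.69 (1.98 to 35.2). Itgax, the alpha-X chain CD11c of dendritic cells, had 9 against 2 reads, a ratio of 4.52, and its interval of 0.935 to 42.9 includes 1. Trim72, the coding gene next to Itgam on the other side, had 71 and 58 reads. Pycard, the inflammasome adaptor ASC and the gene beyond Trim72, stood at 42.1 against 15.96 FPKM. Itgax and Pycard were chosen for naming after their values were seen, as neighbours of Itgam. The neighbour order is that of RefSeq on GRCm38.p6.

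Markers of the cell types in which Itgam is abundant were low in both libraries, as was Itgam itself, at 4.17 and 0.272 FPKM. The 10 myeloid markers summed to 14.5 FPKM in Thy1.1-negative and 12.5 FPKM in Thy1.1-positive cells, 2 of them had a mean of at least 1 FPKM, and Cd68 gave 8.86 and 9.11 FPKM of those sums. Lyz2 had 7 and 5 reads, Csf1r 9 and 9 and Adgre1 6 and 6. Other markers of the list went both ways. Ly6c2 had more reads in Thy1.1-negative cells, 73 against 25, as did Fcgr3, 13 against 3, a ratio of 4.35 (1.19 to 23.8), and Cd14, 6 against 2. S100a8 had fewer there, 4 against 7, as did S100a9, 1 against 3, and Mpo, 6 against 7. The 6 natural killer cell markers summed to 4.56 and 3.82 FPKM, with Klrb1c at 56 against 12 reads, Eomes at 111 against 150 and Ncr1 listed at 0 in Thy1.1-negative cells. Of the myeloid and natural killer lists, 2 genes each had a mean of at least 1 FPKM. Of these, Klrb1c, at 2.08 against 0.445 FPKM, and Ly6c2, at 3.37 against 1.15 FPKM, were at least 2-fold higher in Thy1.1-negative cells. Cd68 and Eomes were within 2-fold and lower there. Of all genes with such a mean, 1.93% were at least 2-fold higher. The 7 dendritic cell markers summed to 66.7 and 53.4 FPKM, of which Cst3 made up 63.5 and 50.1 FPKM and Zbtb46 2.60 and 2.83 FPKM. The 8 B cell markers summed to 14.9 and 9.72 FPKM, with Cd79b at 6.45 against 3.97, Cd22 at 5.59 against 2.60 and Cd79a at 1.63 against 2.07 FPKM. CD8 markers, nearly all Cd8b1, summed to 4.78 and 4.49 FPKM. Platelet and erythroid markers summed to 3.17 and 5.35 FPKM, and 1 of them, the globin gene Hbb-bs, was past 2-fold lower in Thy1.1-negative cells, with 8 against 27 reads and a difference of -1.01, which was -0.86 after rescaling by the upper quartile. Hbb-bs was the 1 gene of its list with a mean of at least 1 FPKM, and 1.15% of all genes with such a mean were at least 2-fold lower. Plasma cell markers summed to 145 and 164 FPKM, of which Xbp1 made up 141 and 161 FPKM and Sdc1 3.51 and 2.06 FPKM. Stromal and endothelial markers summed to 88.1 and 64.9 FPKM, of which Pecam1, which T cells also make, made up 84.8 and 63.5 FPKM, and the collagen gene Col1a1 had 57 against 23 reads, a ratio of 2.49 (1.51 to 4.23). The part of other cell types in the Itgam difference was not tested.

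Of the TGF-beta activating pair, Itgb8 was lower in Thy1.1-negative cells under all scalings tried, while Itgav was lower as deposited and higher after rescaling by the upper quartile. Itgb8 (ENSMUSG00000025321, chromosome 12), the beta-8 chain whose only known partner is alpha-V, stood at 13.4 FPKM, from 1194 reads, in Thy1.1-negative and 16.9 FPKM, from 1506 reads, in Thy1.1-positive cells. The ratio was 0.796 (0.737 to 0.859), and the difference of -0.31 was the lowest of the 10 chains, with 11.2% of genes below it. It shrank to -0.07 after rescaling by the upper quartile. Itgav (ENSMUSG00000027087, chromosome 2) stood at 128 and 140 FPKM, a ratio of 0.916 (0.884 to 0.950). Its difference of -0.12 became 0.13 on the upper quartile scale, where the median of all genes was 0.26. Alpha-V was far more abundant than beta-8, at 9.54 times its level in Thy1.1-negative and 8.29 times in Thy1.1-positive cells by FPKM, or 5.70 and 4.95 times with the longest coding transcript as the length. Between the beta chains, Itgb8 was 0.0469 times Itgb1 in Thy1.1-negative and 0.151 times Itgb1 in Thy1.1-positive cells, so this ratio was 3.22-fold lower in Thy1.1-negative cells (2.96 to 3.50), whatever the scaling of the libraries.

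Of 12 genes that make, hold and sense TGF-beta, 8 had a mean of at least 1 FPKM, and 7 of these were below 0 and 1 above as deposited, but 4 were above and 4 below after rescaling by the upper quartile. None was past 2-fold, and their median of -0.18 became 0.05 on the upper quartile scale. For all genes with such a mean, the median moved from 0.03 to 0.26 and the share above 0 from 55.1% to 82.7%. The median of the list was thus below that of all genes on both scales. Lrrc32, which encodes GARP, the protein that displays latent TGF-beta on Treg cells, had the lowest value, at 148 against 262 FPKM, a ratio of 0.563 (0.550 to 0.577). Tgfb1, the cytokine itself, stood at 264 and 373 FPKM, and the differences of Lrrc32 and Tgfb1 on the upper quartile scale were -0.57 and -0.24. The receptor genes Tgfbr2 and Tgfbr1 had ratios of 0.790 and 0.827. Furin, the protease that cleaves the precursor, stood at 48.9 and 49.6 FPKM, and the interval of its ratio, 0.936 to 1.04, includes 1. Ltbp4, a latent TGF-beta binding protein, had the highest difference of the list, 0.12, at 1.14 and 0.973 FPKM.

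The 16 integrin chains outside the named 10 added little RNA. They summed to 39.3 FPKM in Thy1.1-negative and 31.2 FPKM in Thy1.1-positive cells, so the 10 chains held 97.7% of the summed integrin level in each. Of these 16, 8 had a mean of at least 1 FPKM, of which 2 were at least 2-fold higher and none was at least 2-fold lower. Of all genes with such a mean, 1.93% were at least 2-fold higher and 1.15% lower. On the upper quartile scale Itga7 was also at least 2-fold higher, at a difference of 1.12. There 3.1% of all genes were at least 2-fold higher and 0.64% lower. Itgb3, the beta-3 chain that pairs with alpha-V in a vitronectin receptor, stood at 10.6 FPKM, from 1001 reads, in Thy1.1-negative and 4.36 FPKM, from 412 reads, in Thy1.1-positive cells, a ratio of 2.44 (2.17 to 2.74). Among the beta partners of alpha-V, Itgb3 was thus 0.791 times Itgb8 in Thy1.1-negative and 0.258 times Itgb8 in Thy1.1-positive cells by FPKM, but 1.22 and 0.397 times with the longest coding transcript as the length, so the order of Itgb3 and Itgb8 in Thy1.1-negative cells depends on the length. Itga2, the alpha-2 chain of a collagen receptor, had 189 against 27 reads, a ratio of 7.02 (4.68 to 10.9). Its neighbour Itga1, another collagen receptor chain, had 14 against 3 reads.

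The remaining measured chains went both ways. Itga7, a laminin receptor chain, stood at 3.33 against 1.25 FPKM, a ratio of 2.68 (2.10 to 3.43). Its difference of 0.95 became 1.12, past 2-fold, on the upper quartile scale. Itga3, also of a laminin receptor, had a ratio of 1.24 (1.06 to 1.46) and Itgb5, another partner of alpha-V, a ratio of 1.30 whose interval of 0.811 to 2.09 includes 1. Lower in Thy1.1-negative cells were Itga9 with a ratio of 0.525 (0.373 to 0.732), Itga5, the alpha chain of the classical fibronectin receptor, with 0.641 (0.518 to 0.789), and Itga2b, the platelet alpha-IIb chain, with 0.801 (0.649 to 0.987). Itga2b stood at 8.11 and 10.1 FPKM. The 8 platelet and erythroid markers summed to 3.17 and 5.35 FPKM, with Pf4 at 2 and 1 reads. The part of platelets in the Itga2b level was not tested.

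**Figure D3:**
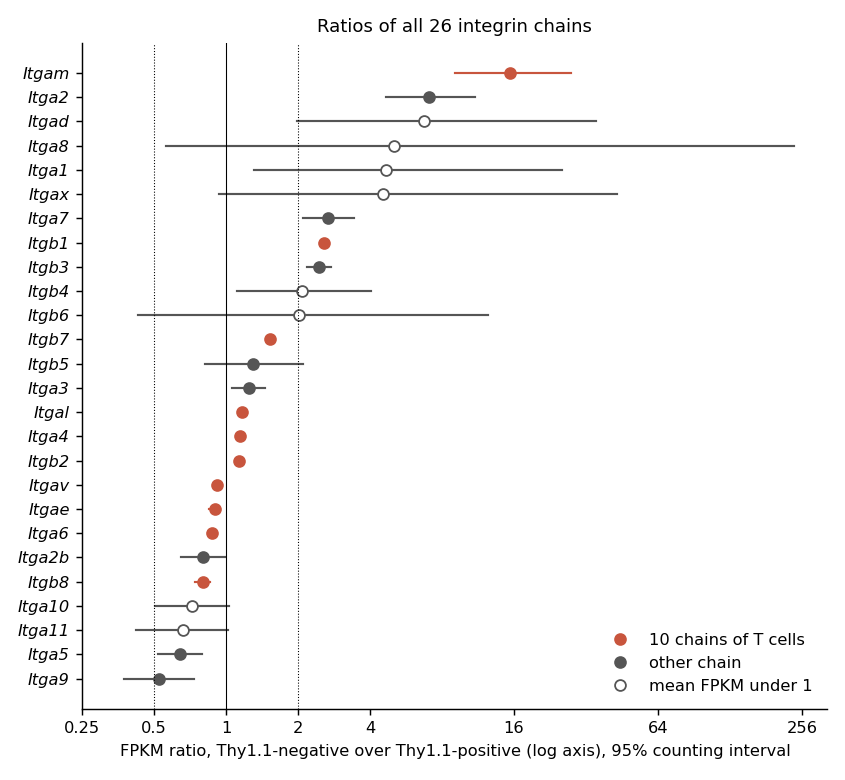
FPKM ratio of all 26 integrin chains, Thy1.1-negative over Thy1.1-positive, on a log axis with 95% counting intervals. Red points are the 10 chains of T cells, grey points the other 16 and open points chains with a mean under 1 FPKM, and dotted lines mark a ratio of 2 and of 0.5. Itgam at 15.3, Itga2 at 7.02, Itga7 at 2.68, Itgb1 at 2.56 and Itgb3 at 2.44 are the filled points right of the upper dotted line, with intervals that lie above 2.

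Signals from inside the cell that bring talin and kindlin to the beta tail raise the ligand binding of many integrins. Of 24 genes of this inside-out activation, inhibitors of it among them, 22 had a mean of at least 1 FPKM. Of these, 15 were above 0 and 7 below, none was past 2-fold, and the median was 0.15. Of all genes with such a mean, 55.1% were above 0, with a median of 0.03. On the upper quartile scale all 22 were above 0, with a median of 0.40, against 82.7% and 0.26 for all genes. Tln1, which encodes talin, stood at 554 and 461 FPKM, and Fermt3, the kindlin of blood cells, at 92.1 and 78.6 FPKM. The rule for naming gave Skap2, an adaptor that links to the integrin activator RIAM, with a ratio of 1.63 (1.35 to 1.97), and Cyth1, which binds the beta-2 tail, with 0.9495 (0.915 to 0.985), a difference that turned from -0.07 to 0.18 on the upper quartile scale. Itgb1bp1, an inhibitor that competes with talin for the beta-1 tail, had a ratio of 1.55 (1.36 to 1.78), and Rap1a, a GTPase that drives activation, 1.40 (1.33 to 1.48).

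Of 26 genes that link integrins to actin and signal from them, 20 had a mean of at least 1 FPKM. Of these, 15 were above 0 and 5 below, none was past 2-fold, and the median was 0.11. On the upper quartile scale 16 were above 0 and 4 below. The share of all genes above 0 was 55.1% as deposited and 82.7% on the upper quartile scale. Flna, the actin crosslinker filamin A, which binds beta tails, was highest, at 397 against 247 FPKM, a ratio of 1.61 (1.58 to 1.64). Zyx, the focal adhesion protein zyxin, had a ratio of 1.52 (1.43 to 1.61). Vav2, a signalling protein of the Vav family, was lowest, at 52.9 against 66.7 FPKM. Among 12 measured membrane partners, 9 were above 0 and 3 below, with a median of 0.16, or 10 and 2 on the upper quartile scale. Cd44, a hyaluronan receptor, led them at 92.1 against 59.5 FPKM, a ratio of 1.55 (1.48 to 1.62), and Plaur, the urokinase receptor, was lowest at 12.5 against 17.6 FPKM.

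Ligands of integrins were mostly low, as 10 of 13 had a mean under 1 FPKM. Icam1 and Icam2, ligands of LFA-1 that T cells also carry, had ratios of 1.25 (1.16 to 1.35) and 1.12 (0.961 to 1.29). Lama5, a laminin chain, was the 1 of 3 measured ligands past 2-fold, at 1.60 against 4.23 FPKM, a ratio of 0.379 (0.297 to 0.480). It lay within 2-fold at -0.82 on the upper quartile scale. Of all genes with a mean of at least 1 FPKM, 1.15% were at least 2-fold lower, or 0.64% on that scale. Vcam1, the ligand of alpha-4 with beta-1, had 58 and 25 reads, Madcam1, the ligand with beta-7, 3 and 7, and Cdh1, the ligand of alpha-E, 13 and 18.

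Genes of tissue retention and exit went in different directions. Of 13 listed, 11 had a mean of at least 1 FPKM. Of these, 7 were above 0 and 4 below, 2 were at least 2-fold higher and none at least 2-fold lower, with a median of 0.10. Of all genes with such a mean, 55.1% were above 0, 1.93% at least 2-fold higher and 1.15% at least 2-fold lower. Gpr15, a receptor that guides T cells to the large intestine, stood at 10.5 against 3.42 FPKM, a ratio of 3.08 (2.51 to 3.81). Prdm1, which encodes Blimp-1, a regulator of effector Treg cells, stood at 15.0 against 6.62 FPKM, a ratio of 2.27 (2.02 to 2.55). Cd101, an inhibitory receptor found together with CD103 on some T cells, was lowest, at 4.95 against 9.86 FPKM, a ratio of 0.502 (0.435 to 0.577). Ccr9, a receptor that guides T cells to the small intestine, stood at 2.60 and 2.49 FPKM, and the interval of its ratio, 0.825 to 1.33, includes 1.

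**Figure D4:**
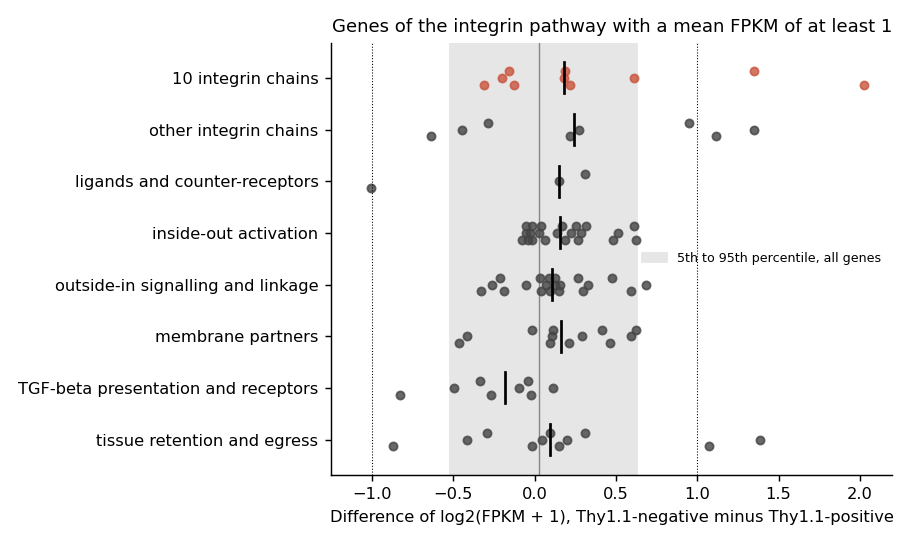
Difference of log2(FPKM + 1), Thy1.1-negative minus Thy1.1-positive, for each gene of the 10 integrin chains (red) and of 7 lists of the pathway (grey) with a mean of at least 1 FPKM, with the list median as a black bar. The grey band spans the 5th to 95th percentile of all genes, from -0.52 to 0.63, and the dotted lines mark 2-fold. Itgam and Itgb1 lie right of the band, and the median of the TGF-beta list is left of 0, at -0.18. On the upper quartile scale it is 0.05, against 0.26 for all genes.

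Levels can be compared between chains only as far as the length used for scaling is right. The length behind the deposited values was within 1 base of the mean over all transcripts of the gene in GENCODE M21, short ones included, for 7 of the 10 chains, and differed from it for Itgal, Itgam and Itgb7. It was 1540 bases for Itgb7 and 2021 bases for Itgb1, against 2683 and 3815 bases for their longest coding transcripts. Scaled to the longest coding transcript instead, a length chosen after seeing the data, the level of Itga4 was 56.4 in place of 150, and that of Itgal 196 in place of 228, in Thy1.1-negative cells. With this length Itgb7 was also the highest chain in both libraries, Itgal the second and Itgb2 the third, Itgb1 was the fourth in Thy1.1-negative and the fifth in Thy1.1-positive cells, and Itgae, Itgb8 and Itgam were the lowest. Neighbouring chains whose order depends on the length chosen, such as Itga4, Itga6 and Itgav, cannot be ranked firmly. Ratios between the libraries do not depend on this length. In GENCODE M21, exons of Itga4 overlap antisense Cerkl over 8.04% of their length and those of Itgav overlap antisense Gm13684 over 5.90%, and whether strand was used in counting is not given in the sources used here.

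**Figure D5:**
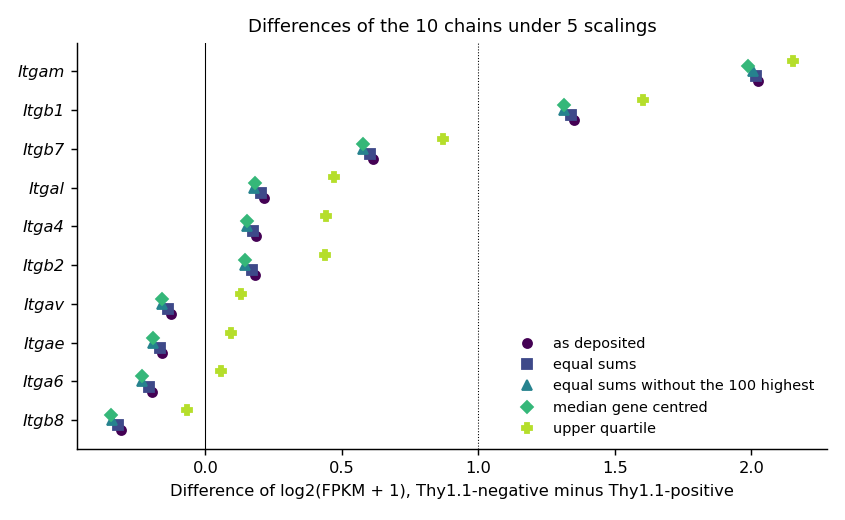
Difference of log2(FPKM + 1), Thy1.1-negative minus Thy1.1-positive, for the 10 chains as deposited and under 4 rescalings, 1 symbol each, with a solid line at 0 and a dotted line at 2-fold. Itgam and Itgb1 stay right of the dotted line under all 5, Itgav, Itgae and Itga6 change sign on the upper quartile scale, and Itgb8 stays below 0.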

How the data were processed

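RNA-seq of 2 sorted populations was analysed, 1 library each, made with NEBNext Ultra from total RNA (3 µg), and sort purity was typically above 97%, per the labels' protocols. The authors deposited FPKM per Ensembl gene, 1 column per population. The letters P and N in the column names were taken to mean Thy1.1-positive and Thy1.1-negative. Bowtie2 2.2.3, TopHat2 2.0.12, HTSeq 0.6.1 and mm9 are named in the submitters' processing notes, without settings.

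Symbols came from GENCODE M21 for 40254 of 41592 IDs, 96.8%. For 23442 genes detected in both libraries the 2 values stood in ratios of whole numbers, within 1e-09, times 1 factor. Library totals and reads per gene followed from annotated mean transcript lengths. Reads were scaled by a multiple chosen to make the implied length whole. That 99.9% of implied lengths were whole within 0.0001 base is therefore no independent check. The recovery was also run on simulated data with the true lengths supplied, so genes whose length differs from the annotation were not covered. The sum of recovered reads was 100.2% (Thy1.1-negative) and 100.1% (Thy1.1-positive) of the total. For genes with a mean of at least 1 FPKM, 54.2% of implied lengths were within 1 base of the annotated mean.

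With 1 library per population no test was run. Genes were called at a 2-fold difference of log2(FPKM + 1) and a mean of at least 1 FPKM. Intervals are Clopper-Pearson intervals for ratios between libraries, exact conditional ones for ratios of ratios and exact Poisson ones for single levels. All are at 95% and cover counting error only. Named were the 10 chains, other chains with a mean of at least 1 FPKM and, from each list, the extremes and genes past 2-fold at that mean, and further list genes, neighbours and markers were named after their values were seen. Alternatives were other pseudocounts, filters, fold rules, scalings and gene lengths. The 10 chains and the lists were chosen with earlier results of these data known. Python 3.11.15, pandas 2.3.3 and scipy 1.17.1 were used.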

Additional observations from a re-analysis of the deposited data

How the results depend on the processing

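No paired analysis was possible because each population is 1 library, and no library could be left out. The count of 2 of 10 chains past 2-fold became 1 with a pseudocount of 5, 1 at a mean of at least 5 FPKM, where 9 chains remained, and 1 under a 4-fold rule. Over all genes the same settings called 91 of 12820, 167 of 8929 and 40 of 12820, against 395 of 12820 in the main setting. With upper quartile scaling the differences were 0.47 for Itgal, 0.44 for Itgb2, 0.44 for Itga4, 1.60 for Itgb1, 0.87 for Itgb7, 0.093 for Itgae, 0.057 for Itga6, 0.13 for Itgav and -0.069 for Itgb8, and the median of the chains was 0.44. Itgam moved to 3.52 with a pseudocount of 0.1 and to 0.80 with one of 5. Itgal moved to 0.18 both when centred on the median gene and without the 100 highest genes. By reads not scaled to length, Itgb1 in Itgb1 plus Itgb7 was 43.3% (Thy1.1-negative) and 31.3% (Thy1.1-positive), Itga4 in Itga4 plus Itgae 76.1% in Thy1.1-positive and Itgam in Itgam plus Itgal 1.19% in Thy1.1-negative cells. By the longest coding transcript, a setting chosen after seeing the data, these shares were 34.9%, 24.3%, 55.6% (61.5% in Thy1.1-negative cells) and 1.33%. Over all 12820 genes, 395 calls became 695 and 91 with pseudocounts of 0.1 and 5, 167 at a mean of at least 5 FPKM, where 8929 genes remained, 1238 and 40 under 1.5-fold and 4-fold rules, and the split of 247 higher and 148 lower became 398 and 82 by the upper quartile. Of all 100 alternative values, 69 were within the counting interval or 1.5 times the count, and 31 were not. With 15 reads, Itgam in Thy1.1-positive cells is the value that depth limits most among the 10 chains.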
